A study of Pinctada fucata with 3 samples.

Results

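The mantle of pearl oysters (Pinctada fucata) injected with double-stranded RNA (dsRNA) against Rel was compared with the mantle of oysters injected with dsRNA against green fluorescent protein (GFP), a jellyfish protein that oysters do not make. Long dsRNA triggers RNA interference, the destruction of transcripts that match it. Each treatment is 1 library, from 5 adult oysters given 30 μg of dsRNA in the adductor muscle and sampled 7 days later. Both groups therefore carry an injection and a dsRNA load, and no uninjected mantle enters the comparison. The libraries are called the Rel library and the GFP library. The IκB library, made in the same way with dsRNA against IκB (labelled poI-κB), is used only to place the levels. The labels give no genotype, strain, sex or exact age for any group and do not say whether the pieces of mantle were pooled before sequencing. Of 33072 listed genes, 20423 (61.8%) had a mean of at least 1 FPKM over the Rel and GFP libraries, and these are the genes described. FPKM counts fragments for each kilobase of a transcript and each 1000000 fragments mapped, so levels of different genes can be set side by side.

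The mantle is the sheet of tissue that lines the shell. Its outer epithelium secretes the shell matrix, a mixture of proteins and chitin in which calcium carbonate is laid down, as calcite prisms towards the shell edge and as aragonite nacre on the inner face. A few matrix proteins, among them the carbonic anhydrase-like nacrein and the silk-like and glycine-rich framework proteins, are known for very high transcript levels in this tissue. Rel belongs to the NF-κB family of transcription factors. In animals such factors are held in the cytoplasm by IκB, and they enter the nucleus and act on target genes, many of them immune genes, once IκB is degraded. The question the series addresses is how this pathway bears on biomineralization.

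The deposited table gives identifiers only, and no annotation came with it into this work. The Rel transcript was therefore not analysed here, so the knockdown was not checked. Shell matrix transcripts were not analysed as a group, and the labelled tissue was not checked against marker genes. Abundant transcripts are described instead by their level, their direction and their share of all FPKM. With 1 library per treatment there is no replicate error and no p-value, and every difference is one between 2 libraries. A lower level in such bulk tissue may mean fewer cells of a type or less RNA per cell, and these cannot be told apart.

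The FPKM values summed to 1006661 in the Rel library and 1166698 in the GFP library. Genes listed above 0 numbered 28783 in the Rel library and 27249 in the GFP library. The steps between low values put the Rel library at 1.18 times the depth of the GFP library, while the number of reads in either is unknown. The leading 100 genes accounted for 49.3% of the summed FPKM in the Rel library and 53.4% in the GFP library.

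Across the 20423 genes the differences were centred on 0. At the 2-fold mark, 39.2% of the genes differed between the libraries: 4170 (20.4%) were higher in the Rel library and 3834 (18.8%) were lower. Log2 ratios were computed on FPKM + 1, which understates the change of low genes. Their median was 0.00, with quartiles of -0.73 and 0.79. Another 8285 genes (40.6%) lay within 1.5-fold. At least 4-fold differences were seen for 1568 higher and 1199 lower genes, and at least 16-fold differences for 192 higher and 83 lower genes. The genes at least 2-fold higher had a median of 7.33 FPKM in the Rel library and 1.17 FPKM in the GFP library. The genes at least 2-fold lower had medians of 2.58 FPKM in the Rel library and 11.2 FPKM in the GFP library. When each library was scaled to the same sum (the TPM scale), the median of these genes moved to 0.17 on the log2 scale, and 4737 were higher and 3114 lower.

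**Figure D1:**
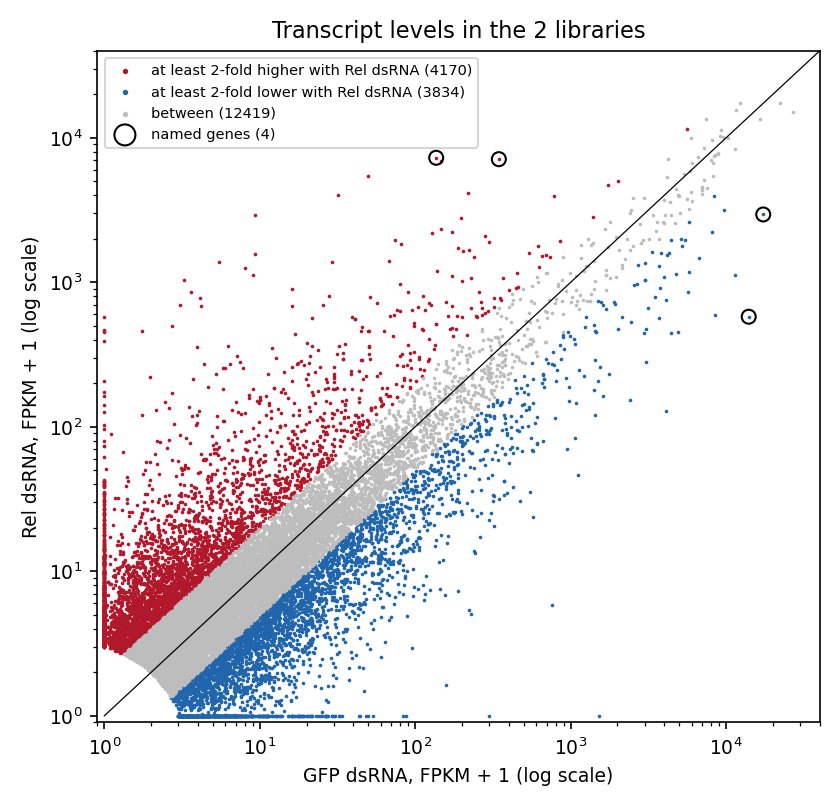
FPKM + 1 of 20423 genes in the Rel library (vertical, log scale) against the GFP library (horizontal, log scale), 1 library each. Red points (4170) are at least 2-fold higher and blue points (3834) at least 2-fold lower in the Rel library, grey points lie between, and black rings mark the 4 named genes, which lie far from the line of equal levels.

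The direction of the differences depended on the level of the transcript. Among 4092 genes at a mean of 1 to 2 FPKM, 957 (23.4%) were at least 2-fold higher in the Rel library and 540 (13.2%) at least 2-fold lower. The 3813 genes at 5 to 10 FPKM were balanced, with 745 higher and 748 lower. Of the 862 genes at 100 to 1000 FPKM, 200 (23.2%) were higher and 250 (29.0%) lower. Of the 168 genes at 1000 FPKM or more, 25 (14.9%) were higher and 49 (29.2%) lower. The shares for all genes tested are 20.4% and 18.8%, so the lower side was over its share at high levels and under it at low levels. The higher side was over its share at 100 to 1000 FPKM too, and under it only at 1000 FPKM or more among these high classes. At 1 to 2 FPKM the median log2 ratio was 0.26, at 100 to 1000 FPKM -0.25, and from 1000 FPKM upwards -0.49. Relative to the median of all genes, these values were 0.20, -0.21 and -0.45 on the TPM scale. That scale multiplies every value of a library by the same factor, but with 1 added to FPKM the ratios of low genes move less. The median went from 0.26 to 0.37 at 1 to 2 FPKM and from -0.49 to -0.28 at 1000 FPKM or more. On the TPM scale, 23.2% of all tested genes were higher and 15.2% lower. The class at 100 to 1000 FPKM then held 226 higher (26.2%) and 220 lower genes (25.5%), so lower genes no longer outnumbered higher ones. Both sides were over their share in this class. At 1000 FPKM or more 26 (15.5%) were higher and 40 (23.8%) lower. The Rel library, the deeper one, is also the one in which more of the low genes were higher, and the part of depth in this was not tested.

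**Figure D2:**
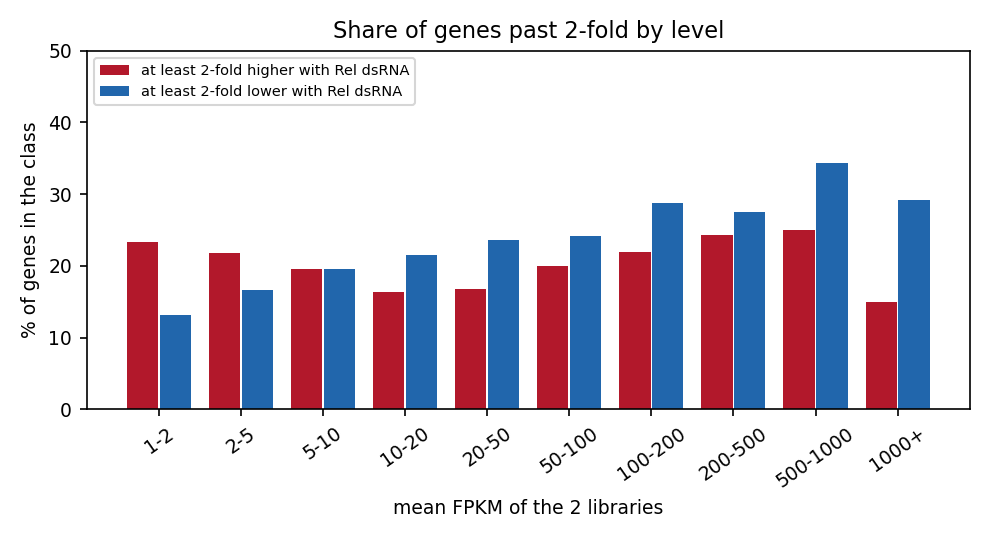
Share of genes (%) at least 2-fold higher (red) or lower (blue) in the Rel library than in the GFP library, by class of mean FPKM over the 2 libraries. Higher genes outnumber lower ones at 1 to 2 FPKM (23.4% and 13.2%), and lower genes outnumber higher ones at 1000 FPKM or more (14.9% higher and 29.2% lower).

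The spread of the log2 ratios was widest among genes of high but not extreme level. The distance between the quartiles was 1.39 at 1 to 2 FPKM, 1.46 at 10 to 100 FPKM and 2.39 at 500 to 1000 FPKM. The first of these is narrowed by the 1 added to FPKM, so it cannot be set directly against the others. At 1000 FPKM or more it was 1.49, and for the first 10 genes by mean level 0.81. Of the 108 genes at 500 to 1000 FPKM, 59.3% differed at least 2-fold, against the 39.2% of all genes, and 24.1% lay within 1.5-fold. Among the 25 genes with the highest mean, 3 passed 2-fold, 1 higher and 2 lower, and 19 lay within 1.5-fold. The 2 lower genes are those with the largest losses of FPKM. Of the next 25 genes by mean level, 7 passed 2-fold, all lower, and 10 lay within 1.5-fold.

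The net fall of summed FPKM lay almost wholly in the most abundant class. Genes at 1000 FPKM or more summed to 564980 FPKM in the Rel library and 709251 FPKM in the GFP library, which is 56.1% of all FPKM in the Rel library and 60.8% in the GFP library. This gap is 90.1% of the gap between the library sums. Genes below 1000 FPKM summed to 436904 FPKM in the Rel library and 454005 FPKM in the GFP library. Their share of all FPKM was instead larger in the Rel library, at 43.4% against 38.9% in the GFP library. The class at 200 to 500 FPKM held 94792 FPKM in the Rel library and 94806 FPKM in the GFP library, although 51.8% of its 309 genes differed at least 2-fold. As a share of all FPKM, this class held 9.42% in the Rel library and 8.13% in the GFP library. The sum of FPKM is not fixed by the number of reads, since reads on longer transcripts add less to it, so the shares and the sums are both given.

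**Figure D3:**
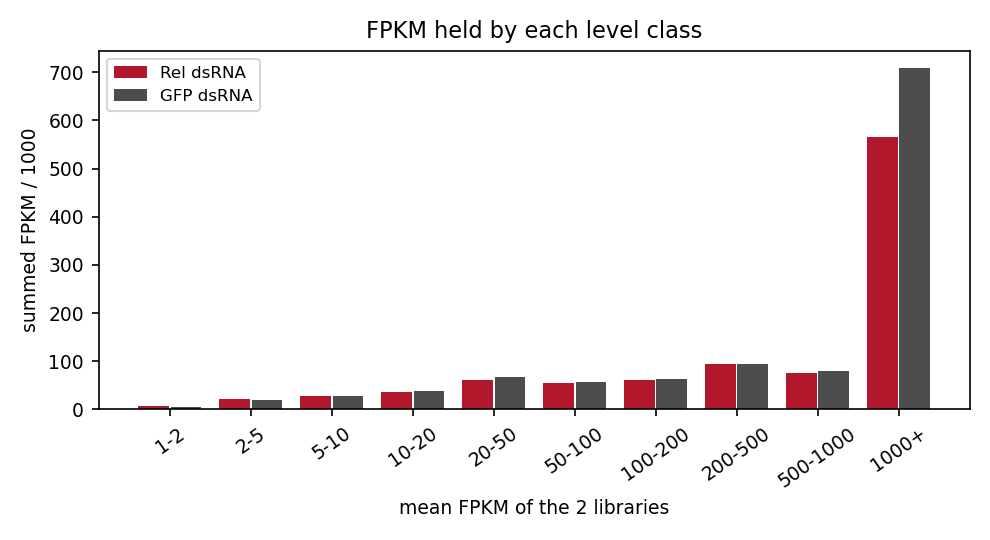
Summed FPKM divided by 1000, by class of mean FPKM over the 2 libraries, in the Rel library (red) and the GFP library (grey). The bars are close in the classes below 1000 FPKM and differ most at 1000 FPKM or more, where the sums are 564980 FPKM in the Rel library and 709251 FPKM in the GFP library.

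Among the 100 genes with the highest mean of the 2 libraries, each at 2136 FPKM or more, 9 were at least 2-fold higher in the Rel library and 28 at least 2-fold lower, where all tested genes gave 20.4% and 18.8%. On the TPM scale the same 100 genes gave 10 higher and 23 lower. The 28 lower genes lay between 445 and 3970 FPKM in the Rel library and between 2983 and 17321 FPKM in the GFP library. Their share of all FPKM was 4.27% in the Rel library and 14.8% in the GFP library. The 9 higher genes lay between 3982 and 11571 FPKM in the Rel library and between 48.6 and 5635 FPKM in the GFP library. They made up 5.58% of all FPKM in the Rel library and 0.947% in the GFP library. The 63 genes that stayed within 2-fold held 37.2% of all FPKM in the Rel library and 35.7% in the GFP library. Of these 63 genes, 20 had a log2 ratio above 0 and 43 below 0. A mean over the libraries favours neither, but a gene enters this group from a low level in 1 library only if it is very high in the other.

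Ranking each library by itself showed how far the leading transcripts were exchanged. Of the 100 most abundant genes in the Rel library, 70 were also among the 100 most abundant in the GFP library. The 30 genes found in the Rel library's list alone had a median of 2331 FPKM in the Rel library and 482 FPKM in the GFP library, and 5 of them ranked below 1000th in the GFP library. The 30 genes found in the GFP library's list alone had a median of 962 FPKM in the Rel library and 3794 FPKM in the GFP library, and none of these 30 ranked below 791st in the Rel library. Entries thus came in part from genes of low rank in the other library, while the genes that dropped out of the list stayed well expressed. A list chosen on 1 library favours genes that are high there, which is why both lists are given.

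The 10 most abundant genes in the GFP library contained 3 that were at least 2-fold lower in the Rel library. They ranked 3rd, 5th and 8th in the GFP library, and stood at 2945, 577 and 1115 FPKM in the Rel library, against 17321, 13966 and 11471 FPKM in the GFP library. The other 7 of these 10 lay within 2-fold. The gene ranked first in the GFP library had 15156 FPKM in the Rel library and 26938 FPKM in the GFP library, a log2 ratio of -0.83. The gene ranked first in the Rel library had 17386 FPKM in the Rel library and 12360 FPKM in the GFP library, a log2 ratio of 0.49. Of the 10 most abundant genes in the Rel library, 1 was at least 2-fold higher there, at 11571 FPKM against 5635 FPKM in the GFP library.

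Gained and lost output was then added up over genes, as the FPKM difference between the libraries. A total of 10199 genes had more FPKM in the Rel library, by 276968 FPKM in sum, and 10201 had less, by 438340 FPKM in sum. The excess of loss over gain restates the gap between the library sums, 1006661 FPKM in the Rel library and 1166698 FPKM in the GFP library. On the TPM scale, where these sums are equal, it all but vanishes by construction. Few genes carried much of the gain or the loss: 71 genes held 50% of the gain and 61 genes held 50% of the loss. FPKM itself was nearly as concentrated. The 100 largest changes made up 55.9% of the gain and 60% of the loss. The leading 100 genes by level held 49.3% of all FPKM in the Rel library and 53.4% in the GFP library. The 10 largest changes made up 19.9% of the gain and 19.4% of the loss. For 90% of each sum, 1524 and 1265 genes were needed.

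**Figure D4:**
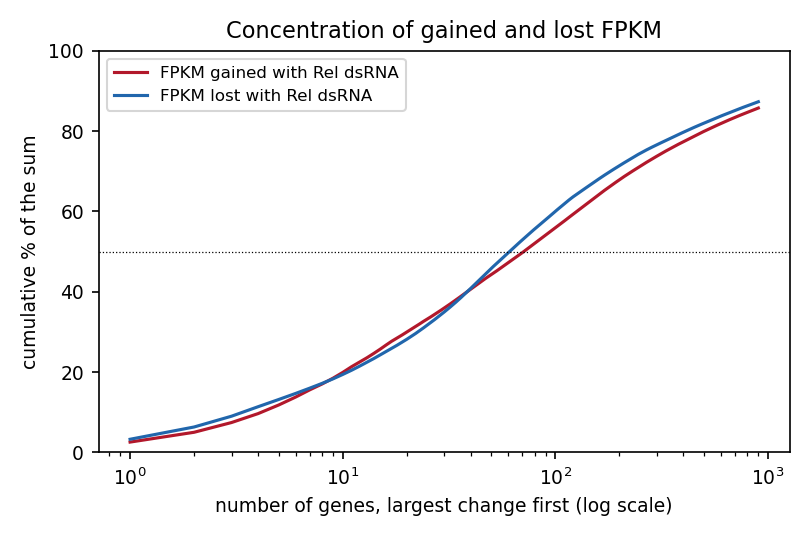
Cumulative share (%) of the summed FPKM difference against the number of genes (log scale), largest change first, for genes with more (red) and less (blue) FPKM in the Rel library than in the GFP library. The dotted line at 50% is crossed at 71 genes for the gain and 61 for the loss.

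The genes behind the gain and the loss differed in their level in the GFP library, which the direction of the sorting favours in part. The 71 genes with 50% of the gain had a median of 1929 FPKM in the Rel library and 219.9 FPKM in the GFP library. Of them, 54 were at least 2-fold higher, 42 at least 4-fold and 24 at least 16-fold. In the GFP library, 22 of the 71 were below 100 FPKM. The 61 genes with 50% of the loss had a median of 1538 FPKM in the Rel library and 4932 FPKM in the GFP library. Of them, 43 were at least 2-fold lower, 23 at least 4-fold and 2 at least 16-fold. None of the 61 was below 100 FPKM in the Rel library, and 40 were at 1000 FPKM or more there. The gain thus held more differences of at least 16-fold than the loss, whose genes mostly remained abundant. Over all tested genes, too, more were at least 16-fold higher (192) than lower (83). The lists were also not cut alike: the smallest change was 670.7 FPKM in the gain and 1539.3 FPKM in the loss. Every gene of the loss therefore had to be abundant in the GFP library.

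The largest gain was that of BGI_novel_G010326, at 7269 FPKM in the Rel library and 135.4 FPKM in the GFP library, a log2 ratio of 5.74. It ranked 21st in the Rel library and 792nd in the GFP library. BGI_novel_G010224 followed, at 7109 FPKM in the Rel library and 344 FPKM in the GFP library, a log2 ratio of 4.37. It ranked 22nd in the Rel library and 368th in the GFP library. The largest loss was that of BGI_novel_G008593, at 2945 FPKM in the Rel library and 17321 FPKM in the GFP library, a log2 ratio of -2.56. This gene made up 0.293% of all FPKM in the Rel library and 1.48% in the GFP library. The gene pfu_aug2.0_8407.1_26278 followed, at 577 FPKM in the Rel library and 13966 FPKM in the GFP library, a log2 ratio of -4.60. Its rank was 257th in the Rel library and 5th in the GFP library.

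The identifiers next to the named genes were looked up after the values were seen. Both genes just below BGI_novel_G010326 in number were higher too. They stood at 6866 and 5479 FPKM in the Rel library and at 145 and 48.6 FPKM in the GFP library, with log2 ratios of 5.56 and 6.79. Together the 3 genes held 1.95% of all FPKM in the Rel library and 0.0282% in the GFP library, and 6.96% of the summed gain. The gene beyond them, 3 numbers below BGI_novel_G010326, stood at 3.04 FPKM in the Rel library and 2.25 FPKM in the GFP library, and the gene 1 number above it at 4.89 FPKM in the Rel library and 10.6 FPKM in the GFP library. The gene 1 number below BGI_novel_G008593 was lower too, at 577 FPKM in the Rel library and 2137 FPKM in the GFP library, a log2 ratio of -1.89. The gene 1 number above BGI_novel_G010224 was instead listed at 0 in the Rel library and at 7.74 FPKM in the GFP library. Genes with neighbouring numbers may be copies of one another that share reads, and whether these do was not tested.

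**Figure D5:**
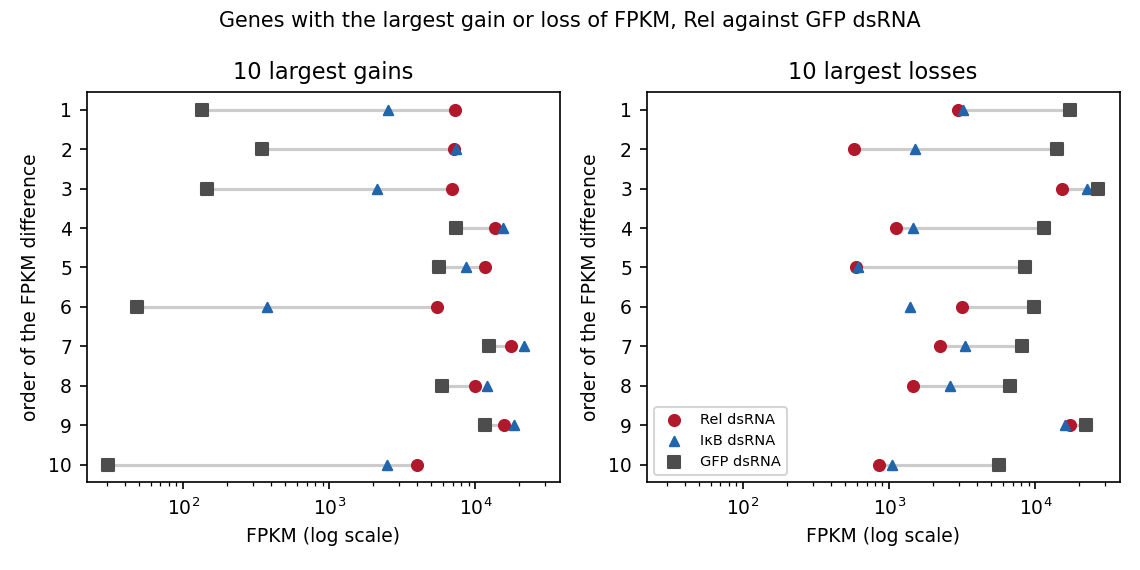
FPKM (log scale) of the 10 genes with the largest gain (left) and the 10 with the largest loss (right), as the Rel library less the GFP library. Levels are those of the Rel library (red circles), the IκB library (blue triangles) and the GFP library (grey squares). The gains include 5 genes over 16-fold higher, which are between 30.7 and 344 FPKM in the GFP library, and the losses include 1 gene over 16-fold lower.

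A like direction among neighbours was also seen over all genes. Of 1671 pairs of BGI_novel genes with consecutive numbers in which both members passed 2-fold, 62.1% had the same direction. The share was 56.4% for numbers 2 apart, 50.6% for numbers 5 apart and 50.2% for numbers 20 apart. For pfu_aug2.0 genes that also share the middle field of the identifier, 61.5% of 460 consecutive pairs had the same direction, and 47.3% of 184 pairs that were 5 apart. Leaving out genes whose values were identical to those of another gene in all 3 libraries gave 60.0% of 1430 BGI_novel pairs and 61.8% of 448 pfu_aug2.0 pairs. The pairs share genes and are not independent, and these shares are a description.

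The identifier classes were alike over all genes and less so among the abundant ones. Over all tested genes, 20.4% of the 10063 pfu_aug2.0 genes were at least 2-fold higher and 17.5% lower, compared with 2114 higher and 2069 lower of the 10360 BGI_novel genes. At 1000 FPKM or more, 7 of 86 pfu_aug2.0 genes were higher and 23 lower, compared with 18 higher and 26 lower of 82 BGI_novel genes. Of the 71 genes with 50% of the gain, 45 were BGI_novel genes, and of the 61 with 50% of the loss, 28 were. BGI_novel genes made up 50.7% of all tested genes and 48.8% of those at 1000 FPKM or more, so the count for the loss is near these shares.

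Some transcripts were listed in 1 of the 2 libraries and at 0 in the other. In the Rel library 508 tested genes (2.49%) were listed at 0, and in the GFP library 760 (3.72%). The GFP library is the less deep of these libraries, and the part of depth in this was not tested. Most were rare: 61.8% of the genes at 0 in the Rel library were below 5 FPKM in the GFP library, and 61.2% of those at 0 in the GFP library were below 5 FPKM in the Rel library. At 100 FPKM or more in the other library were 2 of the genes at 0 in the Rel library and 11 of the genes at 0 in the GFP library. The 2, and 10 of the 11, were above 0 in the IκB library. At all levels this held for 59.6% of the genes at 0 in the Rel library and 80.4% of those at 0 in the GFP library. Without read counts it is not known how few reads a 0 stands for.

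The levels in the IκB library were set beside these differences. Both knockdowns are read against the same GFP library, so a likeness between them is in part built in. BGI_novel_G010326 stood at 2522 FPKM in the IκB library, BGI_novel_G010224 at 7309 FPKM, BGI_novel_G008593 at 3218 FPKM and pfu_aug2.0_8407.1_26278 at 1513 FPKM. All 4 thus differed from the GFP library in the direction seen in the Rel library. The 25 genes of the most abundant class that were at least 2-fold higher in the Rel library had medians of 2805 FPKM in the Rel library, 1546 FPKM in the IκB library and 298.1 FPKM in the GFP library. The 49 that were at least 2-fold lower had medians of 956 FPKM in the Rel library, 1307 FPKM in the IκB library and 3773 FPKM in the GFP library. Against the GFP library, 15 of the 25 were also at least 2-fold higher in the IκB library, and 34 of the 49 at least 2-fold lower. None of either set passed 2-fold the other way. Of all 4170 higher genes, 2699 were at least 2-fold higher in the IκB library than in the GFP library, and 35 lower. Of all 3834 lower genes, 2640 were at least 2-fold lower in the same comparison, and 26 higher. The level in the IκB library lay between the other levels for 21 of the 25 and 41 of the 49. Over all levels this held for 60.0% of the 4170 higher and 60.6% of the 3834 lower genes. Genes chosen for a difference between the Rel and GFP libraries favour such a place for the third library, and what unaltered libraries would give was not tested. Compared directly with the Rel library, 8 of the 25 were at least 2-fold lower in the IκB library, the gene 2 numbers below BGI_novel_G010326 among them at 375 FPKM. Over all levels this was so for 24.7% of the 4170 higher genes, which were likewise chosen for being high in the Rel library. Of the 49, 4 (8.16%) were at least 2-fold higher and 2 (4.08%) lower in the IκB library than in the Rel library. Over all levels, 17.7% of the 3834 lower genes were at least 2-fold higher and 3.55% lower in this comparison.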

How the data were processed

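The authors deposited 1 table of FPKM values, named so in the file header and rounded to 2 decimals, with 33072 genes and 3 libraries (Rel, IκB and GFP dsRNA). HISAT, Bowtie2 and RSEM were used, per the submitters' processing notes. What each did, their versions, the build and the annotation used are not stated in the sources at hand. Capture with oligo(dT) and depletion of rRNA both appear in the labels' protocols, without saying which one these libraries had. Columns were matched to libraries by name, and 0 were left unused.

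Genes were kept at a mean of 1 FPKM or more over the Rel and GFP libraries. Log2 ratios of FPKM + 1 were computed in Python 3.11.15 with pandas 2.3.3. FPKM are not counts and there is 1 library per group, so no count model and no p-value was used. The code for the calls was run on simulated data, which does not give the error of a call. Relative depth was taken from the most frequent ratio of values of 0.3 to 3 FPKM, searched within 1.5-fold of equal depth. The genes named are the 2 that gained the most FPKM and the 2 that lost the most. Other genes are given by rank or number only, and the gene lists planned for named identifiers were not applied. The comparison and its rules were chosen with earlier results of these data known. Alternatives were a pseudocount of 0.1, other filters and scalings, and counting identical genes once.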

Additional observations from a re-analysis of the deposited data

How the results depend on the processing

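With 1 library per group no replicate could be left out and no call with a p-value exists. No paired analysis was possible because each group has 1 library and the labels carry no replicate numbers. Of 61 alternative values for the counts of changed genes, the median ratio and the numbers of genes holding 50% of the gain or loss, 57 stayed within 1.5 times the count reported or, for the median, within 0.1. A filter at a mean of 5 FPKM left 1912 genes at least 2-fold higher in the Rel library and 2298 lower, and a median log2 ratio of -0.16. This filter tests fewer genes, and it turned the balance towards lower genes (45.4% higher, against 52.1%). The TPM scale gave a median of 0.18 over its own 20030 genes and 60.9% higher. Among the 100 most abundant genes the TPM scale, where these genes are chosen anew, gave 12 higher and 22 lower, and the other scalings gave the reported 9 and 28. The pseudocount, the filters and the removal of identical values hardly bear on genes of such levels, so their equal counts say nothing of stability. These equal counts are among the 57 values above. The log2 ratios of the 4 named genes kept their direction and stayed within 1.5-fold at the other pseudocount and the 3 scalings (16 values). The filters cannot alter a named gene's ratio. The depth behind each value is unknown, so no counting error can be given.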
